A study of Mus musculus with 3 samples.

Results

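miR-101a and miR-101b are a pair of near-identical mouse microRNAs made from 2 genes on different chromosomes. Their reads were collected here from the small RNAs of liver by matching every distinct insert to the precursors Mir101a and Mir101b, on both arms of each hairpin. The pair held 141403 reads in the TuD-miR-122 library, 66371 reads in the TuD-let-7 library and 143602 reads in the mock library, of 3681585, 2066892 and 3450317 reads in all. These were 2 of 1174 annotated precursors, and 757 mature entries had at least 1 read. Reads that fitted miR-101a and miR-101b equally well were left out of both.

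All 3 libraries came from the liver of mice of the inbred strain C57BL/6. The animals had received scAAV9, an adeno-associated virus vector with a self-complementary genome, 4 weeks earlier. In the TuD-miR-122 group the vector expressed a Tough Decoy against miR-122, the most abundant microRNA of hepatocytes. In the TuD-let-7 group it expressed a Tough Decoy against let-7, and in the mock group it carried no decoy. A Tough Decoy is a hairpin RNA made in the cell that holds exposed binding sites for its target microRNA. The series asked what such decoys do to the stability and integrity of microRNAs, and neither decoy is directed against miR-101. Each group had 1 library, and the sources used here do not give the number and sex of the animals behind it, nor the promoter that drove each decoy. No difference between libraries therefore has a replicate check, and all intervals below are 95% intervals that cover counting error only.

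A microRNA is cut from a hairpin in 2 steps. Drosha frees the hairpin and so sets the 5′ end of the 5p arm and the 3′ end of the 3p arm. Dicer then removes the loop and sets the 5′ end of the 3p arm, and with it the seed, bases 2 to 8, by which the microRNA pairs with its targets. In miR-101 the 3p arm is the guide. miR-101 is conserved among vertebrates, is known for repressing the histone methyltransferase EZH2 in human cells, and has been reported as reduced in human liver cancer. After cutting, terminal nucleotidyltransferases can add adenosines or uridines to a 3′ end, and exonucleases can shorten it.

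Mir101a lies at chr4:101346945-101347027 on the minus strand, within an exon of the lincRNA E130102H24Rik on the same strand. Mir101b lies at chr19:29135279-29135375 on the plus strand, within an intron of Rcl1, a gene for a ribosomal RNA processing protein, also on the same strand. Positions are from GENCODE on genome build GRCm38. The hairpins are printed in full because both 5′ starts discussed here, and the bases that follow the mature 3p arms, lie inside them; capitals mark the mature arms as RefSeq (GRCm38.p6) gives them.

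Mir101a: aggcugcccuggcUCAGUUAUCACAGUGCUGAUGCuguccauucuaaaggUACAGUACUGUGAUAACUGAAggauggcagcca
Mir101b: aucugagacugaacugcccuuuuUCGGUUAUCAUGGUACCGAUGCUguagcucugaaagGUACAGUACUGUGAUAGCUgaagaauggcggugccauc

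The mature 3p arms are given next with the seed in capitals, because RefSeq starts them 1 nt apart and thereby gives the pair different seeds.

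miR-101a-3p: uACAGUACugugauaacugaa
miR-101b-3p: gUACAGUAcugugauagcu

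In the text that follows, position 1 is the first base of miR-101a-3p in RefSeq, a U, and position 0 is the G before it, where RefSeq starts miR-101b-3p. Over the stretch that reads covered, the precursors differed at A16G and G23A, written with the base of Mir101a first. Position 16 alone therefore told almost all reads of the pair apart. The 5p arms were easier to separate, since they differed at 5 of 22 bases.

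Bases at position 16 that fit neither member were rare. Of the reads whose other bases matched and that carried any base there, C or U, which belongs to neither member, made up 0.172% in TuD-miR-122 (0.151 to 0.196%), 0.411% in TuD-let-7 (0.361 to 0.467%) and 0.137% in mock (0.118 to 0.158%). A change between A and G, which would move a read from 1 member to the other, was gauged at the other A and G positions of the arm. A was read as G in 0.0981 to 0.185% of reads in TuD-miR-122, 0.0971 to 0.234% in TuD-let-7 and 0.138 to 0.261% in mock over 5 positions. G was read as A in 0.0418 to 0.0570%, 0.0399 to 0.0867% and 0.0563 to 0.0677% of reads in those libraries over 4 positions. Reads from position 0 or earlier whose matching part stopped before position 16 fitted both members. They numbered 50 in TuD-miR-122, 239 in TuD-let-7 and 63 in mock, at most 0.360% of the pair. Reads from position 1 or later that stopped there had fewer than 16 matching bases and were not counted at all.

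Other mismatches were not spread evenly, and in the TuD-let-7 library they went with how far along the insert a base lay. Among reads that started at position 1, G10T was seen in 8.04% of miR-101a-3p and 8.09% of miR-101b-3p in TuD-let-7, against 0.508% and 0.490% in mock. G19T was seen in 7.46% and 8.87% of these reads in TuD-let-7, against 0.101% and 0.166% in mock. A2C was found in 5.58% and 5.96% in TuD-let-7, against 0.0222% and 0.0255% in mock. In reads that started 1 base earlier the same bases gave other values. There G10T, now the base numbered 11 of the insert, was seen in 17.01% of miR-101a-3p and 15.7% of miR-101b-3p in TuD-let-7, while G19T was seen in 0.136% and 0.182%. The same letters of the same RNA thus gave more or fewer mismatches with their place in the insert, in both members alike, and the cause was not tested. In TuD-miR-122 the most frequent mismatch by position reached 0.611% for miR-101a-3p and 0.706% for miR-101b-3p in reads starting at position 1.

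**Figure D1:**
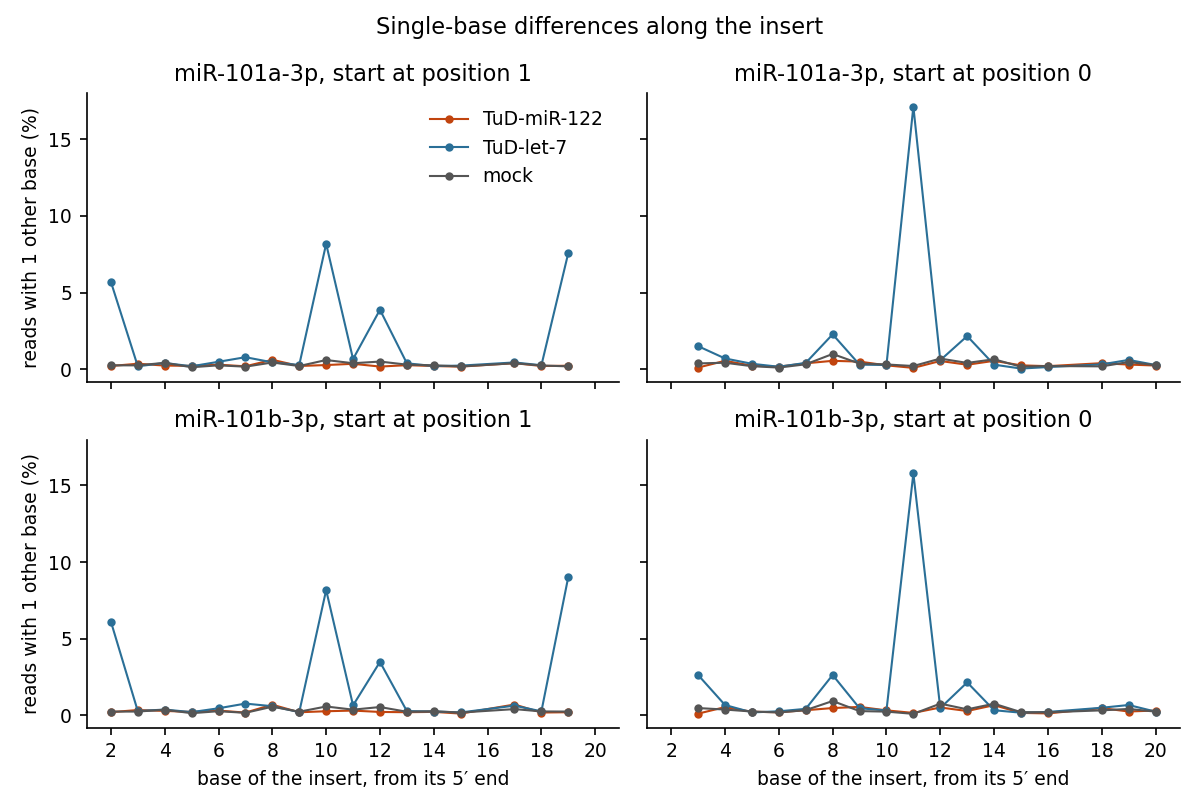
Percent of reads with 1 other base, by the number of the base in the insert counted from its 5′ end, for each member (rows) and 5′ start (columns), with 1 line per library. The TuD-let-7 line peaks at base 10 and base 19 for starts at position 1 and at base 11 for starts at position 0, and the TuD-miR-122 and mock lines stay below 1%.

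These reads bear on every value of the TuD-let-7 library below. Reads with a mismatch inside the first 16 nt were not counted, and allowing 1 mismatch added 4.14% to miR-101a-3p and 4.79% to miR-101b-3p in TuD-miR-122, but added 25.6% and 27.01% in TuD-let-7, and 4.90% and 5.43% in mock. A mismatch after that point, such as G19T, ended the matching part early and left the rest of the read as a tail. Tails of this kind, whose later bases match the precursor again, are counted separately below.

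Both 3p arms were among the most abundant microRNAs of liver, and miR-101b-3p was the larger by more than 2-fold. miR-101b-3p had 100111 reads in TuD-miR-122, 44984 reads in TuD-let-7 and 100065 reads in mock, and it ranked 3 among all microRNAs in each library. As RPM, reads per 1000000 microRNA reads other than those of miR-122 and let-7, this was 64231 RPM, 85579 RPM and 68041 RPM. miR-101a-3p had 41208 reads in TuD-miR-122 (26439 RPM, rank 15), 21361 reads in TuD-let-7 (40638 RPM, rank 7) and 43441 reads in mock (29539 RPM, rank 11). Together the 3p arms made up 5.06%, 4.23% and 5.07% of all microRNA reads in those libraries. In bulk tissue such as this, fewer cells of a type and less RNA per cell cannot be told apart.

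Neither 3p arm differed from mock by 2-fold in either decoy library. In TuD-miR-122 the ratio to mock was 0.895 for miR-101a-3p (0.883 to 0.907) and 0.944 for miR-101b-3p (0.936 to 0.952); over all microRNA reads, miR-122 and let-7 included, that of miR-101b-3p turned to 1.015 (1.006 to 1.024). In TuD-let-7 it was 1.38 for miR-101a-3p (1.35 to 1.40) and 1.26 for miR-101b-3p (1.24 to 1.27), but the direction turned when all reads of the library were the base, to 0.821 and 0.750. That other base moves the log2 ratio of every microRNA in TuD-let-7 by -0.75. There miR-122-5p held 987941 of 1568766 microRNA reads, against 1034425 of 2833182 in mock. On the RPM scale the median ratio over all tested microRNAs, which leave out miR-122 and let-7, was 0.995 for TuD-miR-122 and 0.989 for TuD-let-7. In TuD-miR-122, 91 of 243 tested microRNAs had a lower ratio than miR-101a-3p and 107 had a lower ratio than miR-101b-3p. In TuD-let-7, 156 of 198 had a lower ratio than miR-101a-3p and 141 had a lower ratio than miR-101b-3p, and the upper quartile of all ratios was 1.33.

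A microRNA other than miR-122 and let-7 was tested if the decoy and mock library held 100 or more of its reads together. It was called if the whole interval of its ratio lay above 2 or below 0.5. In TuD-miR-122, 14.8% of the tested microRNAs were called higher and 3.70% lower than in mock. In TuD-let-7, 3.54% were called higher and 3.54% lower. Of the members, miR-101a-3p, miR-101b-3p and miR-101a-5p had enough reads, and 0 of these 3 were called in either direction in either library; with 1 library a group no replicated test or p-value exists beside that count.

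The proportion of the pair stayed near 70% miR-101b-3p. miR-101b-3p made up 70.8% of the pair's 3p reads in TuD-miR-122 (70.6 to 71.1%), 67.8% in TuD-let-7 (67.4 to 68.2%) and 69.7% in mock (69.5 to 70.0%). This corresponds to 2.43, 2.11 and 2.30 reads of miR-101b-3p per read of miR-101a-3p. The intervals did not overlap, and the difference to mock was 1.11 percentage points in TuD-miR-122 (0.775 to 1.45) and -1.93 percentage points in TuD-let-7 (-2.35 to -1.498).

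Other pairs of related microRNAs showed larger differences to mock, except the miR-26 pair in TuD-miR-122. miR-29a-3p made up 65.0% of the miR-29a-3p and miR-29b-3p reads in TuD-miR-122, 57.4% in TuD-let-7 and 53.1% in mock. miR-26a-5p made up 65.5% of its pair with miR-26b-5p in TuD-miR-122, 69.6% in TuD-let-7 and 64.5% in mock. These pairs are given for scale, and with 1 library a group no test of the difference between pairs was made.

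**Figure D2:**
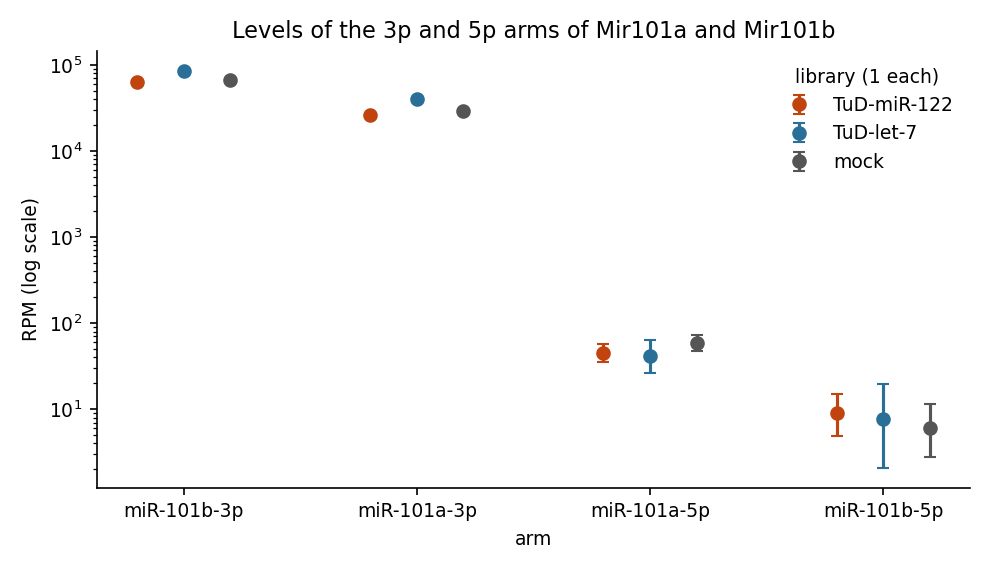
Level of each arm in RPM on a log axis, with 1 point per library and bars for the exact 95% counting interval. The 3p arms sit between 26439 RPM and 85579 RPM and the 5p arms between 6.12 RPM and 59.2 RPM in all 3 libraries.

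The passenger 5p arms were rare, and Mir101b gave fewer of them than Mir101a. Reads of both are shown because the 5p arm of Mir101a had 2 starts 1 base apart, each with a frequent read, and those of Mir101b varied in length.

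miR-101a-5p, longer form: tcagttatcacagtgctgatgct
miR-101a-5p, later start: cagttatcacagtgctgatgct
miR-101b-5p, most frequent: tcggttatcatggtaccga
miR-101b-5p, full length: tcggttatcatggtaccgatgct

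The most frequent miR-101b-5p read had 4, 0 and 3 reads in TuD-miR-122, TuD-let-7 and mock, and the full-length one had 1, 1 and 3. miR-101a-5p had 70 reads in TuD-miR-122 (44.9 RPM), 22 reads in TuD-let-7 (41.9 RPM) and 87 reads in mock (59.2 RPM). miR-101b-5p had 14, 4 and 9 reads in those libraries (8.98, 7.61 and 6.12 RPM). Mir101a thus gave 589 reads of the 3p arm per read of the 5p arm in TuD-miR-122 (466 to 755), 971 in TuD-let-7 (641 to 1550) and 499 in mock (405 to 624). Mir101b gave 7151 in TuD-miR-122 (4262 to 13080), 11246 in TuD-let-7 (4392 to 41277) and 11118 in mock (5857 to 24316). The arm ratio of Mir101b lay above that of Mir101a in every library with no overlap of their intervals, while the intervals of the decoy and mock libraries overlapped for Mir101b. For Mir101a the interval of TuD-miR-122 overlapped that of mock. The Mir101a interval of TuD-let-7, which rests on 22 reads of the 5p arm, did not. Relative to its 3p arm, the 5p arm of Mir101a was 12.1 times as frequent as that of Mir101b in TuD-miR-122 (6.78 to 23.4), 11.6 times in TuD-let-7 (3.93 to 46.2) and 22.3 times in mock (11.2 to 50.3).

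The start of miR-101a-5p was split, with 35 of 70 reads in TuD-miR-122, 13 of 22 in TuD-let-7 and 50 of 87 in mock at the RefSeq 5′ end. Nearly all others began 1 base later (35, 8 and 37 reads). miR-101b-5p began at the RefSeq 5′ end in 12 of 14, 4 of 4 and 9 of 9 reads. Reads from elsewhere on the hairpins were few. Exact reads that began 3 to 6 nt from the 5′ end of an arm were not counted with it. They numbered 6, 3 and 2 for Mir101a and 66, 32 and 31 for Mir101b in TuD-miR-122, TuD-let-7 and mock. Exact reads further away numbered 0 in every library for Mir101a and 2, 1 and 8 for Mir101b, and 0 reads were antisense to either hairpin.

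The 3p arms of the pair had 2 main 5′ starts, and both members used them in nearly the same proportion. Most reads of either member began with the U at position 1, which is the RefSeq start of miR-101a-3p but not of miR-101b-3p. For miR-101a-3p this start took 73.7% of reads in TuD-miR-122, 71.9% in TuD-let-7 and 76.4% in mock. For miR-101b-3p it took 74.4%, 72.3% and 75.1% in those libraries. The RefSeq start of miR-101b-3p, the G at position 0, began 23.01% of them in TuD-miR-122 (22.8 to 23.3%), 25.7% in TuD-let-7 (25.3 to 26.2%) and 22.7% in mock (22.4 to 22.9%). The same start began 25.7% of miR-101a-3p reads in TuD-miR-122 (25.3 to 26.1%), 27.5% in TuD-let-7 (26.9 to 28.1%) and 23.1% in mock (22.7 to 23.5%).

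Reads from position 1 of either gene therefore carry the seed printed above for miR-101a-3p, and reads from position 0 carry the one printed for miR-101b-3p. Starts at position 2 took 2.55%, 1.95% and 2.23% of miR-101b-3p. They took 0.585%, 0.492% and 0.430% of miR-101a-3p, but that count is incomplete, since 161, 59 and 133 reads with this start fitted miR-101c equally well and were left out.

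Few liver microRNAs had so mixed a 5′ end, with miR-122 and let-7 left out of this comparison and of the comparisons of shares below. The share of reads not at the most frequent start was 26.3% for miR-101a-3p and 25.6% for miR-101b-3p in TuD-miR-122, against a median of 1.88% over 86 microRNAs with at least 1000 reads. In TuD-let-7 it was 28.1% and 27.7%, against a median of 1.83% over 51 microRNAs. In mock it was 23.6% and 24.9%, against a median of 1.79% over 82 microRNAs, and 11 and 10 of these had a larger share. miR-29a-3p and miR-29b-3p reached at most 4.47%, and miR-26a-5p and miR-26b-5p at most 1.44%.

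miR-101a-3p used the early start more in both decoy libraries than in mock. The share at position 0 differed from mock by 2.60 percentage points in TuD-miR-122 (2.02 to 3.18) and by 4.44 percentage points in TuD-let-7 (3.72 to 5.16). For miR-101b-3p the difference was 0.329 percentage points in TuD-miR-122 (-0.0394 to 0.698) and 3.06 percentage points in TuD-let-7 (2.58 to 3.55). Taken as levels, early-start miR-101a-3p had 6793 RPM in TuD-miR-122, 11190 RPM in TuD-let-7 and 6823 RPM in mock, ratios to mock of 0.996 and 1.64. Its position 1 form had 19482 RPM, 29237 RPM and 22580 RPM, ratios of 0.863 and 1.29. In TuD-miR-122 the interval of the early form (0.969 to 1.02) held 1, whereas that of the main form (0.849 to 0.876) did not.

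In all, 76 microRNAs other than miR-122 and let-7 had at least 1000 reads in both TuD-miR-122 and mock. Their median change in reads off the main start was 0.293 percentage points. The change of miR-101a-3p, 2.76 percentage points, was the highest, but miR-192-5p was almost level with it. Reads of miR-192-5p off the main start made up 30.4% in TuD-miR-122 against 27.7% in mock. In TuD-let-7 the change of miR-101a-3p, 4.50 percentage points, was exceeded by 1 of 51 microRNAs, and that of miR-101b-3p, 2.78, by 3. With 1 mismatch allowed the position 0 difference of miR-101b-3p in TuD-let-7 was 3.65 percentage points.

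The 3′ ends separated the members more than the 5′ ends did. The 6 most frequent reads of each member, ranked by their sum over the 3 libraries, show this. Capitals mark position 16 and any untemplated last base.

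miR-101a-3p, ending at 20: tacagtactgtgataActga
miR-101a-3p, ending at 20 from position 0: gtacagtactgtgataActga
miR-101a-3p, ending at 21: tacagtactgtgataActgaa
miR-101a-3p, ending at 21 with an A: tacagtactgtgataActgaaA
miR-101a-3p, ending at 22: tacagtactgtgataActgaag
miR-101a-3p, ending at 21 with a T: tacagtactgtgataActgaaT
miR-101b-3p, ending at 22: tacagtactgtgataGctgaag
miR-101b-3p, ending at 20: tacagtactgtgataGctga
miR-101b-3p, ending at 21: tacagtactgtgataGctgaa
miR-101b-3p, ending at 20 from position 0: gtacagtactgtgataGctga
miR-101b-3p, ending at 21 with an A: tacagtactgtgataGctgaaA
miR-101b-3p, ending at 21 from position 0: gtacagtactgtgataGctgaa

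The first of these was the leading form of miR-101a-3p, at 25.3% in TuD-miR-122, 23.7% in TuD-let-7 and 30.1% in mock. The leading form of miR-101b-3p ended 2 bases later and held 23.7%, 21.9% and 25.3% of its reads. The 10 most frequent forms held 88.7%, 83.7% and 87.0% of miR-101a-3p reads and 87.1%, 79.9% and 85.3% of miR-101b-3p reads.

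miR-101a-3p ended mostly at position 20, in 44.2% of reads in TuD-miR-122, 44.9% in TuD-let-7 and 48.8% in mock, or at position 21, in 41.2%, 37.0% and 35.8%. Position 22 was the last matching base in 9.44%, 7.46% and 8.73%. miR-101b-3p was spread more evenly, with 29.5%, 30.5% and 29.4% at position 20, then 33.3%, 29.7% and 31.0% at position 21, and 30.5%, 26.4% and 31.1% at position 22. The extra base at position 22 was thus more than 3 times as frequent in miR-101b-3p, although both precursors have the same letters from position 17 to 22. Insert lengths followed, and 22 nt was the most frequent length for both members in all 3 libraries, at 37.1%, 36.7% and 34.9% of miR-101a-3p and 46.2%, 48.3% and 47.7% of miR-101b-3p.

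The start and the end of a read were not independent. Among miR-101b-3p reads from position 1, 38.9% in TuD-miR-122, 34.8% in TuD-let-7 and 39.6% in mock ran to position 22. Among its reads from position 0 the same end was found in 0.556%, 0.648% and 0.476%. miR-101a-3p showed the same order, with 12.5%, 10.1% and 11.2% for reads from position 1 and 0.302%, 0.187% and 0.269% for reads from position 0. miR-101b-3p reads from position 2 ended at position 22 most often, in 56.2%, 54.7% and 55.1%. A later start therefore went with a later end, in both members and in each library, and the median insert of miR-101b-3p was 22 nt from position 0 and from position 1 alike.

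**Figure D3:**
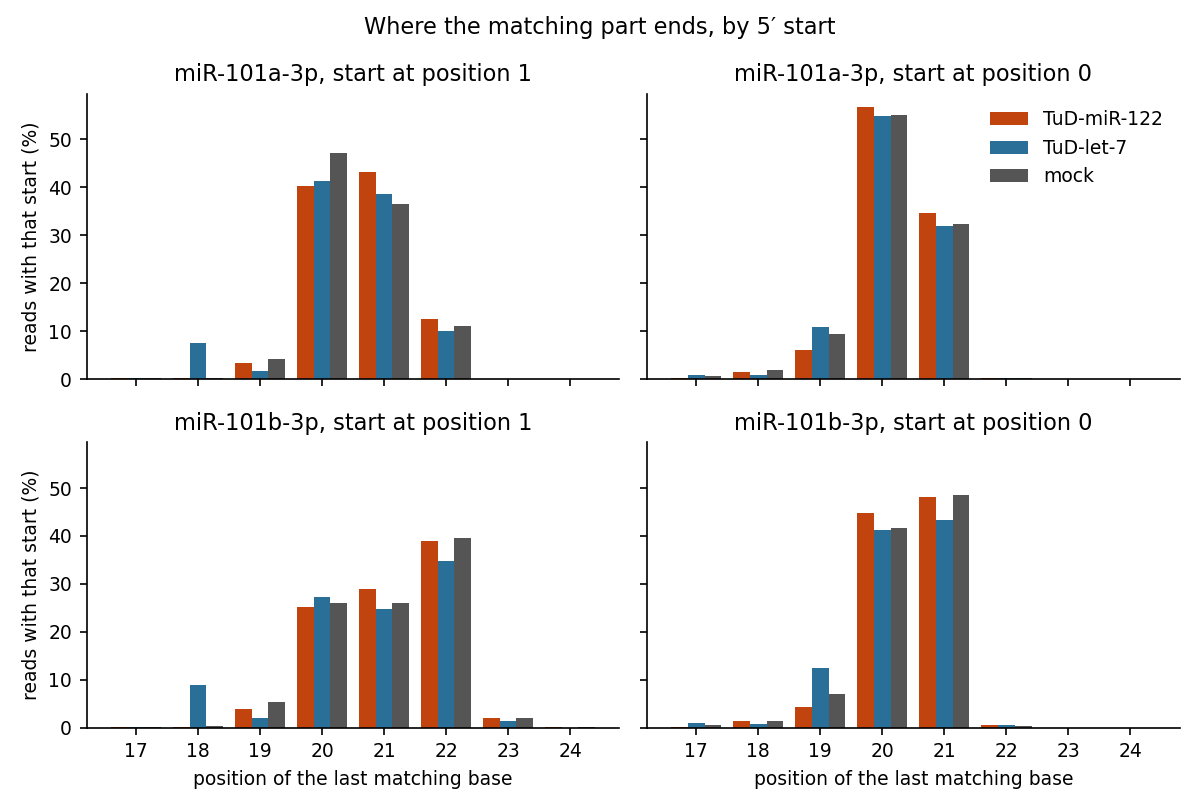
Percent of reads by the position of the last base that matches the precursor, for each member (rows) and 5′ start (columns), with 1 bar per library. Ends at position 22 are frequent for starts at position 1, most of all in miR-101b-3p (34.8 to 39.6%), and stay under 1% for starts at position 0.

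Reads with a matching part under 21 nt, called trimmed, were fewer in TuD-miR-122 than in mock for both members. For miR-101a-3p they made up 35.3% in TuD-miR-122, 40.8% in TuD-let-7 and 43.1% in mock. For miR-101b-3p they made up 24.8%, 32.6% and 27.2%. The difference to mock in TuD-miR-122 was -7.83 percentage points for miR-101a-3p (-8.49 to -7.17) and -2.45 for miR-101b-3p (-2.83 to -2.06). Of 76 microRNAs, 74 lay above miR-101a-3p, and the median was -0.191. The median trimmed share in mock was only 7.27% over 82 microRNAs. Many microRNAs thus could not fall as far as miR-101a-3p, and its rank does not show an unusual change. With the limit set at under 20 nt the differences of the members were -0.902 for miR-101a-3p and -1.14 for miR-101b-3p, so both the size and the order of the members depended on the limit. Trimmed reads were fewer at both starts. Of miR-101a-3p reads from position 0, 8.32% were trimmed in TuD-miR-122 against 12.3% in mock, and of those from position 1, 44.3% against 52.2% in mock. For miR-101b-3p the shares were 6.41% against 9.40% in mock from position 0 and 29.96% against 32.2% in mock from position 1. Among miR-101a-3p reads from position 1, 40.2% ended at position 20 in TuD-miR-122 against 47.2% in mock, and 43.2% ended at position 21 against 36.6% in mock.

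In TuD-let-7 the members went opposite ways at the limit of 21 nt, with differences to mock of -2.32 percentage points for miR-101a-3p (-3.13 to -1.51) and 5.43 for miR-101b-3p (4.92 to 5.95). With the limit at under 20 nt both were above mock, by 3.102 and 3.73 percentage points. The mismatches of this library moved with these values, and their part was not tested. Ends at position 18, just before the mismatch at 19, made up 5.64% of miR-101a-3p in TuD-let-7 against 0.619% in mock, and 6.70% of miR-101b-3p against 0.549% in mock. Of the reads ending there in TuD-let-7, 97.4% and 98.2% had a tail. When tails that return to the precursor were counted as matching, the difference was -4.32 percentage points for miR-101a-3p and 1.03 for miR-101b-3p.

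Tailed reads, whose last 1 to 5 bases do not match the precursor, made up about 3 in 10 reads of either member. For miR-101a-3p the share was 30.0% in TuD-miR-122 (29.6 to 30.5%), 35.6% in TuD-let-7 (34.9 to 36.2%) and 30.8% in mock (30.3 to 31.2%). For miR-101b-3p it was 28.3% (28.001 to 28.6%), 34.7% (34.3 to 35.1%) and 28.3% (28.03 to 28.6%). Over all microRNAs other than miR-122 and let-7 with at least 1000 reads the median was 23.1%, 32.0% and 25.9% in those libraries. In mock, 32 of 82 microRNAs had a larger tailed share than miR-101a-3p and 36 had a larger one than miR-101b-3p.

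Most tails were of A alone or of U alone. Tails of A alone made up 10.8%, 10.6% and 10.9% of miR-101a-3p and 12.1%, 11.02% and 11.7% of miR-101b-3p in TuD-miR-122, TuD-let-7 and mock. Tails of U alone, read as T, made up 12.3%, 10.6% and 10.5% of miR-101a-3p and 10.6%, 7.75% and 8.98% of miR-101b-3p. Both members had more U tails in TuD-miR-122 than in mock, by 1.82 and 1.57 percentage points, and 8 and 10 of 76 microRNAs differed by more; the median was 0.0888. Tails of 2 to 5 adenosines were rare, at most 0.430% in either member.

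The excess of tailed reads in TuD-let-7 lay in other tails. Tails that return to the precursor after 1 base made up 5.65% of miR-101a-3p in TuD-let-7 against 1.60% in mock, and 9.42% of miR-101b-3p against 3.53% in mock. Counting them as mismatches reduced the difference to mock to 0.741 percentage points for miR-101a-3p (-0.00784 to 1.49), from 4.79, and to 0.498 for miR-101b-3p (0.0152 to 0.983), from 6.39. Tails of A alone differed the other way, by -0.264 and -0.661 percentage points.

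What was added depended on where the read ended, and here the members differed in every library. After position 21, a single U followed in 22.4% of miR-101a-3p reads in TuD-miR-122, 21.7% in TuD-let-7 and 21.1% in mock, but in 6.65%, 5.68% and 5.56% of miR-101b-3p reads. A single A followed in 24.7%, 27.4% and 28.6% of miR-101a-3p reads and in 34.9%, 35.8% and 36.4% of miR-101b-3p reads. After position 22 the order of the U tails turned, with 5.12%, 3.52% and 4.27% for miR-101a-3p and 16.2%, 11.8% and 13.4% for miR-101b-3p. A single A after position 19 or 20 cannot be seen, since both precursors have an A there, and after position 22 it cannot be seen in miR-101b-3p, whose position 23 is an A.

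**Figure D4:**
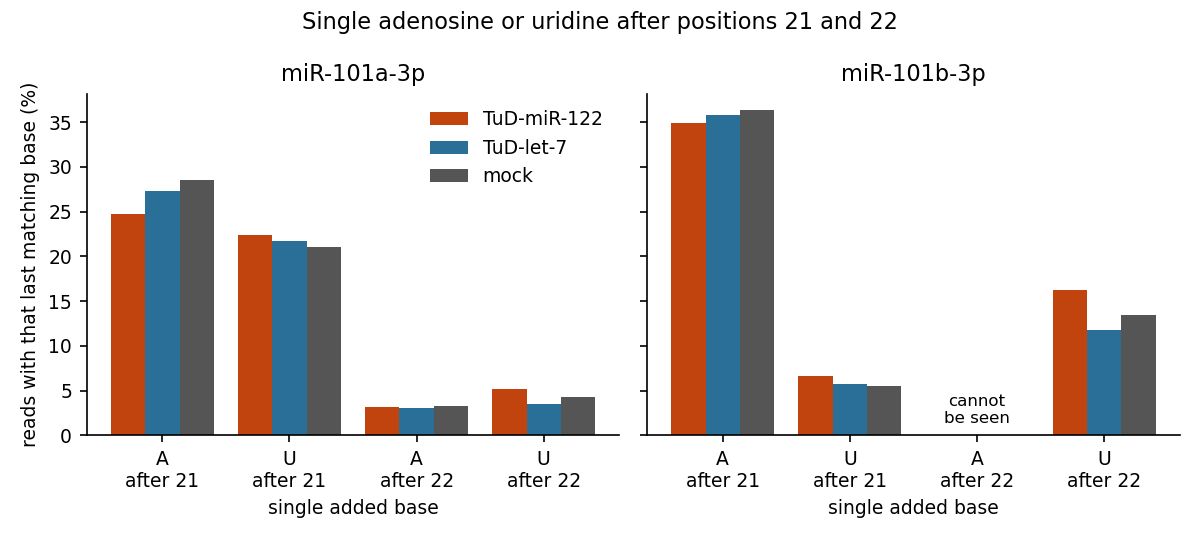
Percent of reads with a single added A or U among reads whose last matching base is position 21 or 22, for each member and library. After position 21 a single U is near 21 to 22% in miR-101a-3p and near 6% in miR-101b-3p, and after position 22 the order is reversed; an A after 22 cannot be seen in miR-101b-3p.

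Tails went with the start of a read as well, more so in miR-101a-3p than in miR-101b-3p. In TuD-miR-122, 14.4% of miR-101a-3p reads from position 0 were tailed, against 35.3% of those from position 1. For miR-101b-3p the shares were 23.99% against 28.6% in TuD-miR-122, 30.04% against 35.8% in TuD-let-7 and 26.6% against 27.99% in mock. Tails of A alone in miR-101b-3p went the other way in TuD-miR-122, at 12.8% against 11.97%. In TuD-miR-122, 56.8% of miR-101a-3p reads from position 0 ended at position 20, against 40.2% from position 1. A single A cannot be seen there, and its part was not tested. For miR-101a-3p the share of a start and the share of tailed reads are therefore not separate measures. Among untailed reads the position 0 difference of miR-101a-3p to mock was 4.11 percentage points for TuD-miR-122 and 7.20 for TuD-let-7.

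**Figure D5:**
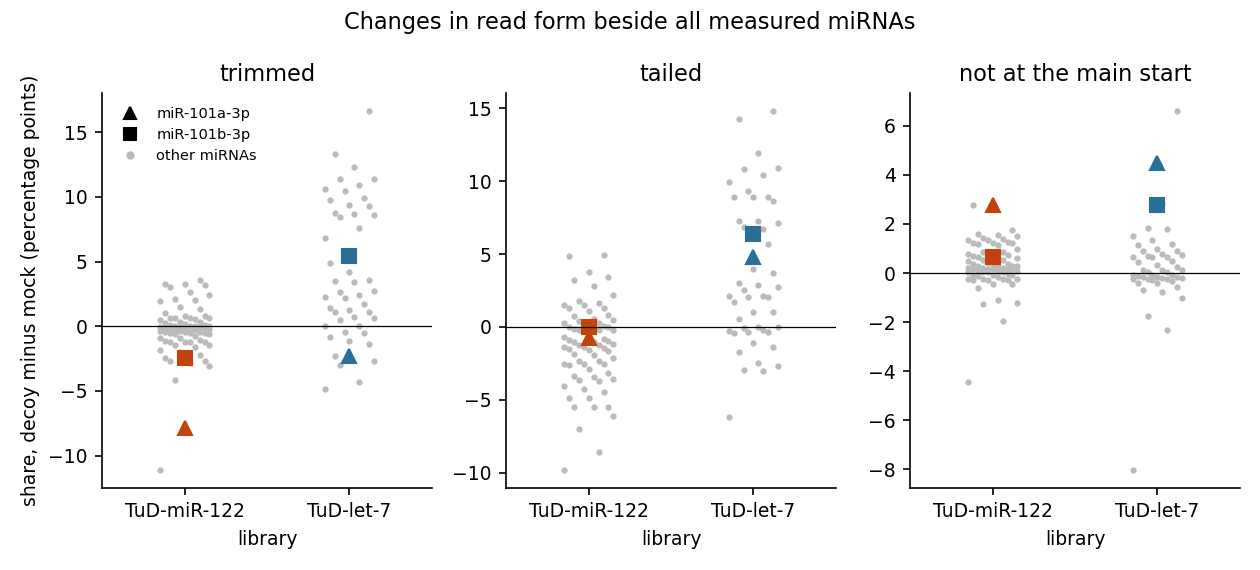
Difference in share between each decoy library and mock, in percentage points, for trimmed reads, tailed reads and reads not at the most frequent start, with 1 grey dot per microRNA with at least 1000 reads in both libraries and the members as coloured symbols. The microRNAs of miR-122 and let-7 are left out. In TuD-miR-122, miR-101a-3p is the second lowest for trimming (-7.83), where many microRNAs had too small a trimmed share in mock to fall that far. It is the highest for start use (2.76), with miR-192-5p almost level.

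The core of the seed, ACAGUA, lay within the first 9 bases of 6 of 1679 RefSeq mature microRNAs, and 5 of these entries, counting miR-199a-3p and miR-199b-3p as 1, had reads. miR-144-3p is shown beside the pair because it shares bases 2 to 7 with miR-101a-3p; capitals mark the seed.

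miR-144-3p: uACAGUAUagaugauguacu
miR-101c: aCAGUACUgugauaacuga

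miR-144-3p, a microRNA of red blood cells, had 5882 RPM in TuD-miR-122, 2719 RPM in TuD-let-7 and 3924 RPM in mock. miR-199a-3p with miR-199b-3p, known from stromal cells, had 3597, 1697 and 3001 RPM. Their ratios to mock were 1.499 and 1.20 in TuD-miR-122 and 0.693 and 0.565 in TuD-let-7, on this scale on the other side of 1 from the pair in each library. miR-101c, annotated at chr9:3038669-3038743 on the minus strand, had 89, 63 and 99 reads. These reads are uncertain: 95, 34 and 100 reads began with the C that miR-101c has in place of the U at position 1, yet had a G at position 16, which miR-101c cannot give.

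Among 49 microRNAs with at least 1000 reads in every library, miR-122 and let-7 left out, the ratios to mock of 3 were most like those of both members. These were miR-30a-5p, miR-194-5p and miR-378a-3p. The measure was the largest difference in log2 ratio over the 2 decoy libraries, which share the mock library. It was 0.04 for miR-30a-5p, 0.05 for miR-194-5p and 0.06 for miR-378a-3p against miR-101a-3p, and 0.09, 0.13 and 0.16 against miR-101b-3p. miR-194-5p, a hepatocyte microRNA, had 53446 RPM in TuD-miR-122, 82797 RPM in TuD-let-7 and 62011 RPM in mock. In TuD-let-7 the hepatocyte marker miR-148a-3p lay below mock and miR-192-5p was close to level with it, whereas the pair lay above it on this scale. In those libraries miR-192-5p had 47312, 56527 and 57176.5 RPM, and miR-148a-3p had 8066, 8483 and 9794 RPM.

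As a check of the tissue label, miR-122-5p, the defining microRNA of hepatocytes, ranked 1 in every library. Reads assigned to microRNAs made up 75.8%, 75.9% and 82.1% of the libraries. Markers of other cells differed between libraries. The 3 skeletal muscle markers summed to 917 RPM in TuD-miR-122, 205 RPM in TuD-let-7 and 9837 RPM in mock, and the 3 pancreas markers to 1428, 154 and 111 RPM. The 3 erythroid markers summed to 45649, 28978 and 32603 RPM, the 2 myeloid markers to 8118, 6653 and 9154 RPM, and the endothelial marker miR-126a-3p had 30558, 26187 and 23505 RPM. None of these markers was at 0, and their part in the levels of the pair was not tested.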

How the data were processed

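The authors deposited, for each library, every distinct insert with its raw read count, not normalised. Per the labels' protocols, total RNA was extracted with the mirVana kit and RNAs of 18 to 30 nt were gel-purified. Adapter trimming, filters, aligner and genome build: not given in the sources used here. Insert lengths were 15 to 30 nt, and the inserts carry no molecular identifiers, so PCR copies count as reads.

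Precursors came from GENCODE mouse release 21 (1174), and 5′ ends from RefSeq (1658 arms) or, where an arm had none, from the most frequent read start (86 arms). A read belonged to an arm when it started within 2 nt of that end, matched for at least 16 nt without mismatch and had a tail of at most 5 nt. The longest match won, and ties stayed out, 0.327 to 0.345% of microRNA reads. RPM used the 1558602 (TuD-miR-122), 525645 (TuD-let-7) and 1470656 (mock) microRNA reads not from miR-122 or let-7, where 3 reads are 1.92, 5.71 and 2.04 RPM. Intervals are exact Clopper-Pearson for shares and exact conditional-binomial for ratios; those of differences between shares are approximate. The counting was tested on simulated data with wrong bases at the same rate along the read, so the uneven mismatches of TuD-let-7 were not covered.

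The text names the members and miR-101c, ACAGTA holders with at least 100 reads, the 3 nearest patterns for each member, the miR-29 and miR-26 pairs and the marker lists. Members and lists were chosen with earlier results of these data known. Alternatives on tails that return to the precursor, and mismatches for read forms, were chosen after seeing the data. Python 3.11, scipy 1.17.1.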

Additional observations from a re-analysis of the deposited data

How the results depend on the processing

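The 24 values tried were the level ratios to mock, the share of miR-101b-3p in the pair, tailed, trimmed and position 0 shares as percentage points over mock, and the arm ratios. The other settings gave 117 values, and 59 of them lay within the counting interval of the reported value. A change of direction was counted only where the reported interval lay on 1 side of 1 or 0. By that rule 9 values changed direction (5 level ratios crossed 1 and 4 differences crossed 0), and 49 lay outside the interval without such a change. The 49 include changes of sign in the tailed difference of miR-101b-3p in TuD-miR-122, whose reported interval held 0. The cause was not tested. The share of miR-101b-3p in the pair stayed within its interval under every setting tried for it, as did every value with matching parts of at least 18 nt or without inserts read once.

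Scaling and the choice of control moved the level ratios. Over all reads, TuD-let-7 gave 0.821 (miR-101a-3p) and 0.750 (miR-101b-3p). Over all microRNA reads the ratios were 0.963 and 1.02 in TuD-miR-122 and 0.888 and 0.812 in TuD-let-7; of these 6 values, all but 0.963 lay on the other side of 1 from the reported ratio. With median-of-ratios size factors they were 0.842 and 0.888 in TuD-miR-122 and 1.28 and 1.17 in TuD-let-7. Against the other decoy library they were 0.651 and 0.751 for TuD-miR-122 and 1.54 and 1.33 for TuD-let-7. At the most frequent start only, miR-101a-3p gave 0.865 in TuD-miR-122, and TuD-let-7 gave 1.31 and 1.23. With 1 mismatch allowed TuD-let-7 gave 1.43 and 1.32, and miR-101b-3p gave 0.933 in TuD-miR-122. Reads matching 3 nt past position 16 gave 1.304 and 1.18 in TuD-let-7.

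Tailed shares of miR-101a-3p changed sign to 0.863 in TuD-miR-122 at the most frequent start, and to -0.264 in TuD-let-7 for tails of A only, as miR-101b-3p did there, to -0.661. The tailed difference of miR-101b-3p in TuD-miR-122 was -0.0270, with an interval that held 0. For A only the values were -0.0644 (miR-101a-3p) and 0.382 (miR-101b-3p) in TuD-miR-122. Tails of at most 2 nt gave 3.197 and 3.71 in TuD-let-7, and 0.518 for miR-101b-3p in TuD-miR-122. The most frequent start gave 7.27 and 7.85 in TuD-let-7, and 0.592 for miR-101b-3p in TuD-miR-122. Reads matching 3 nt past position 16 gave 1.03 and 1.797 in TuD-let-7. With tails that return to the precursor left out, TuD-let-7 gave 0.741 and 0.498, and miR-101b-3p gave 0.430 in TuD-miR-122. With 1 mismatch miR-101b-3p gave 5.63 in TuD-let-7.

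Trimmed shares at under 20 nt were -0.902 and -1.14 in TuD-miR-122, and 3.102 (miR-101a-3p, sign changed) and 3.73 in TuD-let-7. The most frequent start gave -1.01 and 6.61 in TuD-let-7. Reads matching 3 nt past position 16 gave -5.63 and 0.786 there. With tails that return counted as matching, TuD-let-7 gave -4.32 and 1.03, and miR-101b-3p gave -1.89 in TuD-miR-122. With 1 mismatch miR-101b-3p gave 4.40 in TuD-let-7.

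Position 0 shares among untailed reads were 4.11 and 1.17 in TuD-miR-122 and 7.205 and 4.37 in TuD-let-7, and miR-101b-3p with 1 mismatch gave 3.65 there. Arm ratios of Mir101a at the most frequent starts were 868 in TuD-miR-122 and 664 in mock. Without inserts read once, Mir101b had no 5p read left in TuD-let-7 and gave no ratio.

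No paired analysis was possible because each group had 1 library. That also bars any replicate check; the 4 to 87 reads of the 5p arms limit the arm ratios, and the mismatches of the TuD-let-7 library limit what its tails and ends can show.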
